A study of Sus scrofa with 5 samples.

Results

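The genes described here are 4 S100 genes, S100A4, S100A6, S100A10 and S100A11, and 5 annexin genes, ANXA1, ANXA2, ANXA3, ANXA4 and ANXA5. They are 9 of the 30029 genes in the single-cell count tables, all 9 are also in the bulk table, and they were chosen by name with earlier results of these cells known. Their levels across cells are therefore a description and carry no test.

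The series holds 2 single-cell libraries of porcine blastoids and 3 bulk libraries of porcine embryonic stem cells (pESCs). A blastoid is a blastocyst-like structure grown from stem cells. These were made from pESCs and collected at day 6, and the labels name iBlastoid medium as their treatment. The methods describe a direct culture in that medium and another that begins in 4FXY medium, and which of them gave these libraries is not given in the sources used here. The pESCs were grown in 4FIXY medium on mouse embryonic fibroblast feeders. The methods give parthenogenetic blastocysts as the origin of the pESCs, whereas 1 of the 3 columns of the bulk table has a name that begins with IVF, so the origin of that column could not be settled. Blastoids were picked by hand for their shape and dissociated, and how many went into a library is not given in the sources used here. No label says that the 2 blastoid libraries came from separate cultures, so their spread may be technical.

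S100 proteins are small calcium-binding proteins of the EF-hand family that mostly work as dimers by binding other proteins. Annexins bind acidic phospholipids of membranes when calcium rises, and they take part in vesicle transport, membrane repair and links between membrane and actin. The families meet in fixed complexes. S100A10, which does not need calcium, joins a pair of ANXA2 molecules into a heterotetramer at the plasma membrane that also binds plasminogen and its activators, and S100A11 binds ANXA1 and ANXA2. S100A6 and S100A4 bind several partners, annexins and cytoskeletal proteins among them. S100 genes are well known from epithelia, and most of them lie side by side in the genome.

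On the Sscrofa11.1 assembly (susScr11), the build of the deposited tables, all 4 S100 members lie on the plus strand of chromosome 4. S100A4 spans chr4:96088102-96091160 and S100A6 spans chr4:96098264-96099686. S100A11, at chr4:97233833-97239081, and S100A10, at chr4:97261752-97272517, stand together further along. The annexins are scattered, with ANXA2 at chr1:111588721-111635064, ANXA1 at chr1:226414200-226431963, ANXA4 at chr3:72623311-72654591, ANXA3 at chr8:73970314-73993039 and ANXA5 at chr8:102387833-102420868. The 250 bases just before the RefSeq start of S100A6, S100A4 and S100A10 are shown because these genes share a row on the chromosome and yet differed in their pattern over the cells. Capitals mark GCCNNNGGC, a motif of TFAP2 factors. The AP-1 motif, read as TGANTCA, was in none of these 3 windows. Nor was the TEAD motif, read as GGAATG. Nor was the GATA motif, for which the letters searched were AGATAA. All motifs were searched on both strands, and no matches overlapped.

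S100A6, chr4:96098014-96098263, plus strand: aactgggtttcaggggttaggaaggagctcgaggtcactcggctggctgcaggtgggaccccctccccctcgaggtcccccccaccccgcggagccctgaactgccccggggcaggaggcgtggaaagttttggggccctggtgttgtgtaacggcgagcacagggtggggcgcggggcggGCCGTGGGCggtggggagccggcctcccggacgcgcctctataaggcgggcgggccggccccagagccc
S100A4, chr4:96087852-96088101, plus strand: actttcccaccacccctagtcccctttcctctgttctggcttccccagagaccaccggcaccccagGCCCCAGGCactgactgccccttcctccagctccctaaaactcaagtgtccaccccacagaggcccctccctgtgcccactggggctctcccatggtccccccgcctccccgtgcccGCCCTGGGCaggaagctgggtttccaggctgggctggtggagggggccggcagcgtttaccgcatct
S100A10, chr4:97261502-97261751, plus strand: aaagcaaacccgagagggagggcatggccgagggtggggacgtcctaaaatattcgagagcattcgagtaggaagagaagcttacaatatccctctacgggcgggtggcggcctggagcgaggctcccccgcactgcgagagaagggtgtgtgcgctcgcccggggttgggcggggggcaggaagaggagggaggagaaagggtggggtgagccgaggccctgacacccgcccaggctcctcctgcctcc

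S100A6 held 1 TFAP2 match, which began 69 bases before the gene's start. S100A4 held 2, at 184 and 67 bases. S100A10 held none of the motifs. Of 19531 windows of protein-coding genes, 22.0% held the TFAP2 motif, 5.25% the AP-1 motif, 10.3% the TEAD motif and 8.08% the GATA motif. A match is a match of letters in the RefSeq sequence and no sign of binding.

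Cells were taken as barcodes with at least 11223 UMIs (unique molecular identifiers, each a counted RNA molecule) in library 1 and 9807 in library 2. This gave 7369 and 8175 cells, with median totals of 29728 and 27588 UMIs, and the libraries shared 9 cell barcodes. A cell was placed in the gate of GABRP, TP63, POU5F1, CRABP1 or COL3A1 if its level of that gene was at or above the 90th percentile of its library, with at least 3 UMIs. GABRP is a GABA receptor subunit found in amnion and other epithelia, TP63 a factor of surface epithelia, POU5F1 a pluripotency factor, CRABP1 a retinoic acid binding protein and COL3A1 a collagen of connective tissue. The GABRP gate held 551 and 594 cells, the TP63 gate 620 and 641, the POU5F1 gate 648 and 764, the CRABP1 gate 505 and 708, and the COL3A1 gate 626 and 524. Cells in more than 1 gate, 296 and 310, were left out. Levels are in CPM (UMIs of a gene per 1000000 UMIs in the summed cells of a gate). They compare the same gene between gates and not different genes with each other. Empty droplets, barcodes with 10 to 100 UMIs, give the free RNA of each library, and that profile could make up at most between 5.29% and 22.1% of a gate's sum.

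The gates were checked against marker lists. A list that holds the gate gene rises in that gate by the choice of cells. Summed over 8 listed pluripotent genes, the POU5F1 gate held 960.3 and 1385 CPM and no other gate more than 252. POU5F1 itself made up 372 and 544 CPM of the sums in its gate. The 4 surface ectoderm genes in the tables summed to 536 and 467 CPM in the TP63 gate, of which TP63 was 470 and 403. In the GABRP gate they summed to 178 and 158 CPM, of which TP63 was 88.0 and 68.7. Without TP63 this list was thus higher in the GABRP gate. The 9 mesenchyme and fibroblast genes summed to 4261 and 3928 CPM in the COL3A1 gate and to at most 162 elsewhere. COL3A1 itself made up 1511 and 1288 CPM of the sums in its gate. The 6 neural genes summed to 1882 and 2226 CPM in the CRABP1 gate and to at most 111 elsewhere. CRABP1 itself made up 1685 and 2000 CPM of the sums in its gate, so most of this difference restates the gate. The 8 trophectoderm genes summed to 19244 and 19191 CPM in the GABRP gate, with 7 of 8 over 10 CPM, and to between 5538 and 9416 CPM in the other gates, also with 6 or 7 of 8 over 10 CPM. The 7 amnion-associated genes, GABRP among them, summed to 2149 and 2029 CPM in the GABRP gate and to 194 to 1140 CPM elsewhere. GABRP itself made up 1204 and 1178 CPM of the amnion-associated sums in its own gate. In the COL3A1 gate GABRP made up only 64.0 and 55.4 CPM of sums of 1140 and 1061. The amnion-associated genes other than GABRP were thus together higher in the COL3A1 gate in both libraries. The trophectoderm sums were highest in the GABRP gate. In the COL3A1 gate the 6 hypoblast genes, at 399 and 383 CPM, and the 4 endothelial genes, at 100.2 and 92.4 CPM, also had their highest sums. The part of these lists in the members' levels was not tested. The 4 immune genes summed to under 2 CPM in every gate.

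S100A6 stood apart. In the GABRP gate it reached 5193 CPM in library 1 and 5123 in library 2. It lay at 272 and 359 CPM in the TP63 gate, 474 and 381 in the POU5F1 gate, 354 and 228 in the CRABP1 gate, and 269.5 and 217 in the COL3A1 gate. The GABRP gate was high in both libraries. Among the others, the POU5F1 gate lay above the remaining 3, which overlapped. On the log2 scale S100A6 was 4.32 ± 0.15 (SD, n = 2 libraries) above the mean of the other gates, a 20.0-fold difference. Empty droplets held 1109 and 1113 CPM of S100A6, more than any gate but GABRP. Free RNA could therefore account for at most 58.9 to 245 CPM of its level in the other gates, and what remained after subtracting this bound was 80.9 to 371 CPM there. The bound leaves out the gate genes, on which the cells were chosen. CRABP1 would give a lower bound in the COL3A1 gate, where it was at 0.041 and 0.044 of its level in empty droplets.

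**Figure D1:**
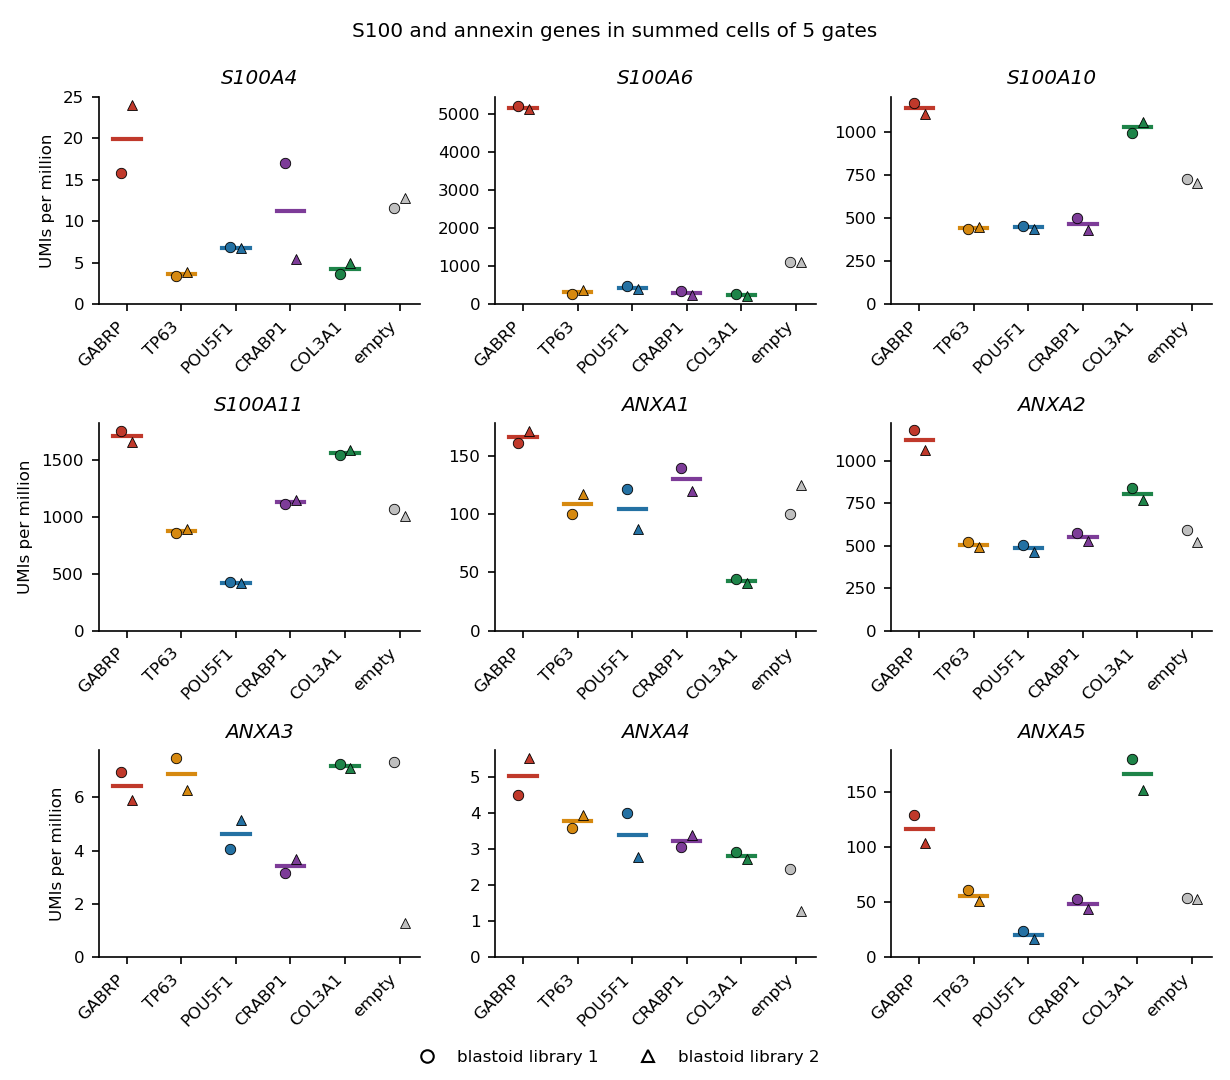
Levels of the 9 members in CPM of the summed cells of each gate; circles are blastoid library 1, triangles library 2, bars the mean of both, and grey symbols empty droplets. S100A6 is at 5193 and 5123 in the GABRP gate and at 474 or less in the others, while S100A10, S100A11 and ANXA2 are high in the GABRP and COL3A1 gates and ANXA5 is highest in the COL3A1 gate.

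Over all cells, the GABRP gate held 45.3% of the S100A6 UMIs of library 1 and 43.3% of those of library 2, with 7.48% and 7.27% of the cells. Of its cells, 60.6% and 60.4% were at or above the 90th percentile of all cells by S100A6 level, against 1.34% to 7.1% in the other gates. Cells of no gate made up 186 of the 737 top cells in library 1 and 260 of the 818 in library 2. The gate genes did not capture every cell with much S100A6.

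S100A6 also varied widely inside the GABRP gate. The median cell had 2804 CPM in library 1 and 2539 in library 2, the 10th percentile was 159 and 147, and the 90th was 16445 and 15109. In the other gates the median cell had 40.2 to 85.9 CPM. After each cell was thinned to 10000 UMIs, 94.6% and 93.9% of GABRP gate cells held at least 1 S100A6 UMI, and 38.3% to 60.6% did in the other gates. Without thinning these shares were 97.1% and 97.6%, against 63.6% to 89.8%. No gate is known to lack the gene, so the share that free RNA alone would give is not known, and median depth ran from 20549 to 38650.5 UMIs in the other gates and was 26771 and 24014.5 in the GABRP gate.

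**Figure D2:**
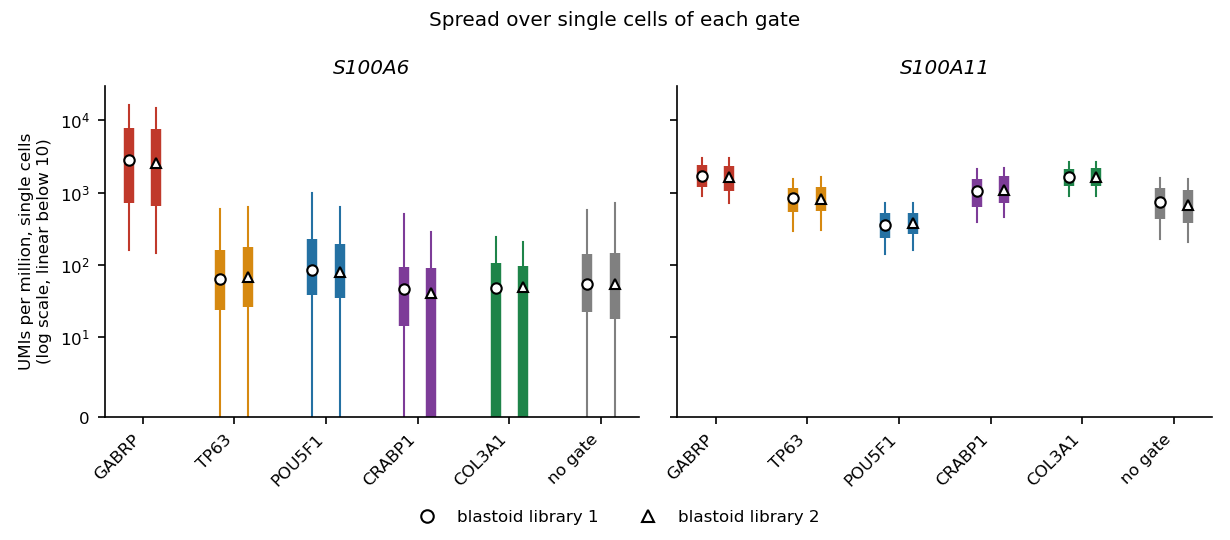
S100A6 and S100A11 in single cells by gate, in CPM on a scale that is logarithmic above 10; thick bars span the 25th to 75th percentile, thin lines the 10th to 90th, and symbols mark the median of library 1 (circle) and library 2 (triangle). S100A6 spans from 159 to 16445 in GABRP gate cells of library 1, whereas S100A11 varies less within each gate and is lowest in the POU5F1 gate.

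S100A6 followed GABRP steeply at the top of its range. Cells without a GABRP UMI, 2494 and 2910 of them, held 244 and 207 CPM of S100A6. When the cells with GABRP UMIs were ordered by GABRP level into 5 bins of equal size, S100A6 rose from 187 and 225 CPM in the lowest bin to 276 and 379 in the third bin, 788 and 819 in the fourth bin and 4241 and 3775 in the fifth bin. All 9 members had their highest level in the fifth bin in both libraries, with 1076 and 955 CPM for S100A10 and 1078 and 914 for ANXA2. The rise was not steady for each, as ANXA5 of library 1 was at 72.7 CPM in cells without a GABRP UMI and at 71.1 in the fourth bin. ANXA1 went only from 112 and 144 CPM in the lowest bin to 149.8 and 151 in the highest. The gate gene defined the order, so these levels are a description.

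**Figure D3:**
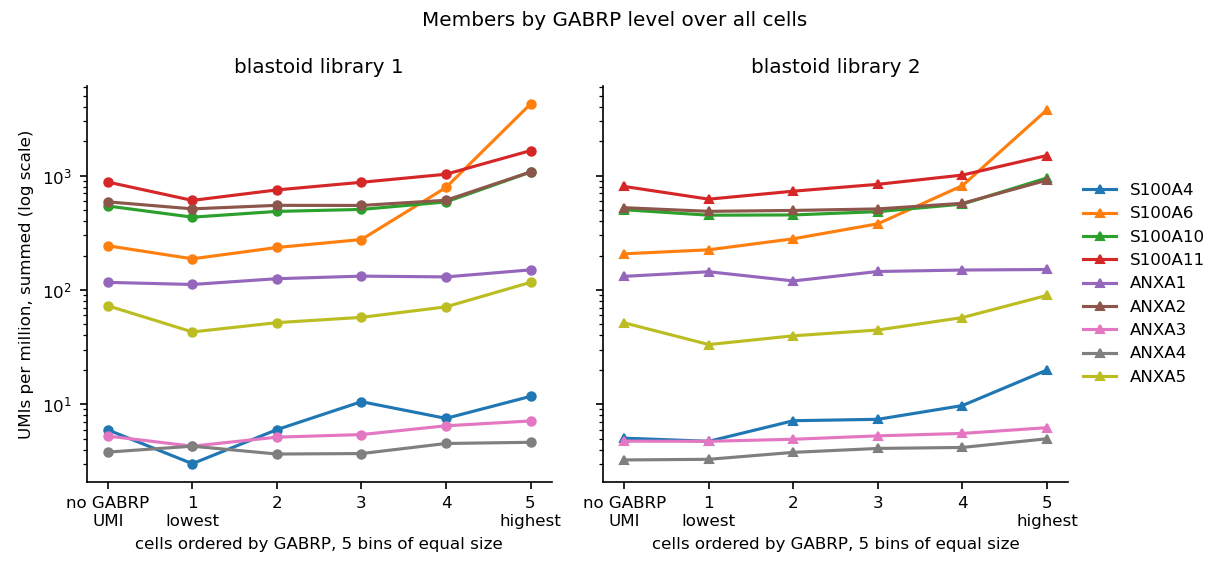
Summed levels of the 9 members, in CPM on a log axis, in cells with no GABRP UMI and in 5 bins of equal size of the cells with GABRP UMIs. S100A6 rises from 788 and 819 in the fourth bin to 4241 and 3775 in the fifth, and the other members rise less.

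The GABRP gate itself was not uniform. TAC3, which encodes the tachykinin neurokinin B and is known from trophoblast, had at least 3 UMIs in 313 of its cells in library 1 and 256 in library 2. S100A6 lay at 6024 and 6096 CPM in these cells and at 4059 and 4401 CPM in the rest of the gate. GABRP itself was also higher in them, at 1275 and 1363 CPM against 1106 and 1041, and its part in the difference was not tested. S100A10 was at 1310.2 and 1253 CPM against 971 and 997, and S100A11 at 1892 and 1933 against 1567 and 1455. ANXA1 did not follow, with 158 and 164 CPM against 165 and 177. Cells that passed only the GABRP and TP63 gates, 93 and 147, held 1810.3 and 1759 CPM of S100A6, between the levels of the gates on their own. Those of the GABRP and COL3A1 gates, 66 and 54 cells, held 8952 and 5480 CPM, above either gate. Of the 296 and 310 cells in more than 1 gate, 28 and 33 were among the 434 and 535 cells with the highest doublet scores, and the part of doublets in these levels was not tested.

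S100A10 and ANXA2, the partners of the heterotetramer, went together. S100A10 had 1167 and 1106 CPM in the GABRP gate and 995 and 1057 in the COL3A1 gate. It had 433 and 449 CPM in the TP63 gate, 453 and 438 in the POU5F1 gate, and 502 and 432 in the CRABP1 gate. ANXA2 had 1187 and 1066 CPM in the GABRP gate, 839 and 771 in the COL3A1 gate, 521 and 491 in the TP63 gate, 506 and 466 in the POU5F1 gate, and 576 and 528 in the CRABP1 gate. For both genes the GABRP gate was highest in each library and the COL3A1 gate second. The other 3 gates overlapped for S100A10, whereas for ANXA2 the CRABP1 gate lay above the TP63 and POU5F1 gates in both libraries. The log2 difference of the GABRP gate was 1.30 ± 0.02 for S100A10 and 1.23 ± 0.02 for ANXA2 (SD, n = 2). S100A10 differed far more between cells of the COL3A1 gate than ANXA2 did, with a median of 625 and 628 CPM and a 90th percentile of 2444 and 2604, against 773 and 716 and a 90th percentile of 1524 and 1456 for ANXA2.

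S100A11, the partner of ANXA1, was lowest in the POU5F1 gate. It had 1755 and 1659 CPM in the GABRP gate, 1541 and 1584 in the COL3A1 gate, 1112 and 1150.1 in the CRABP1 gate, 858 and 897 in the TP63 gate, and 429.7 and 416 in the POU5F1 gate. These 5 levels did not overlap between gates in either library. The log2 difference was 1.19 ± 0.06 in the GABRP gate and -1.68 ± 0.02 in the POU5F1 gate. Empty droplets held 1073 and 1006 CPM of S100A11, and free RNA could supply at most 53.2 to 237 CPM of a gate's level. ANXA1, which is known from epithelia and leukocytes, did not share that pattern. It had 161 and 172 CPM in the GABRP gate, 139.8 and 120.4 in the CRABP1 gate, 121 and 87.1 in the POU5F1 gate, 100.1 and 117 in the TP63 gate, and 44.6 and 41.2 in the COL3A1 gate. The COL3A1 gate was low for ANXA1 in both libraries, with a log2 difference of -1.52 ± 0.03 from the mean of the other gates, whereas it was second highest for S100A11.

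ANXA5, the annexin used as a probe for exposed phosphatidylserine, was the only member of the 9 whose highest level was in the COL3A1 gate in both libraries. It had 179.9 and 152 CPM there, 129 and 104 in the GABRP gate, 61.2 and 50.8 in the TP63 gate, 52.8 and 43.8 in the CRABP1 gate, and 24.0 and 16.7 in the POU5F1 gate. The log2 difference from the mean of the other gates was 1.75 ± 0.05 in the COL3A1 gate and -2.17 ± 0.15 in the POU5F1 gate. After thinning, 77.3% and 68.1% of COL3A1 gate cells held a UMI of ANXA5 and 19.1% and 13.6% of POU5F1 gate cells did.

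S100A4, ANXA3 and ANXA4 were scarce. S100A4, often used as a marker of motile and mesenchymal cells, had 15.8 and 24.0 CPM in the GABRP gate but only 3.57 and 4.97 in the COL3A1 gate. The CRABP1 gate held 17.1 CPM in library 1 and 5.45 in library 2, so its place in the order depended on the library. Empty droplets held 11.6 and 12.8 CPM of S100A4, above every gate but GABRP and the CRABP1 gate of library 1. ANXA3 stayed between 3.17 and 7.47 CPM in all 10 sums and ANXA4 between 2.71 and 5.53, and no more than 9.19% of the cells of a gate held a UMI of either after thinning. For ANXA3 the CRABP1 gate was lowest in both libraries, at 3.17 and 3.70 CPM, and the other gates ran from 4.08 to 7.47.

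By a rule of size with no test, 7 of the 9 members were at least 2-fold above the mean of the other gates in both libraries in the GABRP gate, as were 7.95% of the 17149 genes with enough UMIs. The count fell to 4 with no scaling factor, where 5.79% of all genes passed and the median of all genes was -0.28 on the log2 scale, and to 2 with gates at the 80th percentile, where 6.7% of all genes passed. In the COL3A1 gate it was 1, ANXA5, with 8.48% of all genes. At least 2-fold below were 2 members in the POU5F1 gate (7.14% of all genes), 2 in the COL3A1 gate (6.03%), 1 in the TP63 gate (5.17%) and 1 in the CRABP1 gate (2.8%). For these gates the mean of the others includes the GABRP gate, so a member high in the GABRP gate falls lower in them by this rule. S100A6 was counted in the COL3A1 and CRABP1 gates in this way, so these counts partly restate the GABRP gate. The 2 members that missed the limit in the GABRP gate as first defined were ANXA3 and ANXA4. The median log2 difference of the 9 members was 1.23 in the GABRP gate, 0.38 in the COL3A1 gate, -0.31 in the TP63 gate, -0.48 in the CRABP1 gate and -0.53 in the POU5F1 gate, where the median of all genes was between -0.02 and -0.01. For 6 members both GABRP sums lay above all 8 sums of the other gates, as they did for 9.19% of all genes. All 9 members passed the filter on low counts, also without the GABRP gate's own sums. Since they were chosen with these levels known, the shares are printed for scale and nothing is read from them.

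Within single cells, thinned to the same depth, S100A6, S100A10, S100A11 and ANXA2 were more closely related to each other in the GABRP gate than in the other gates. There Spearman's rho was 0.74 and 0.69 for S100A6 with S100A10, 0.70 and 0.68 for S100A10 with ANXA2, 0.64 and 0.64 for S100A6 with ANXA2, and 0.57 and 0.62 for S100A11 with ANXA2. In the other 4 gates the same pairs ranged from 0.21 to 0.37, 0.15 to 0.46, 0.06 to 0.30 and 0.12 to 0.44. Thinning evened out the total depth of cells but not the counts of these genes. S100A6 averaged 56.8 and 55.5 UMIs per thinned cell in the GABRP gate and 1.48 to 5.04 in the others. For S100A10 the averages were 12.1 and 11.2 UMIs against 4.17 to 10.7. The part of lower counts in the lower rho of the other gates was not tested. Some other pairs stayed within the range of the other gates. S100A11 with ANXA1 reached 0.25 and 0.24 in the GABRP gate and ran from -0.16 to 0.27 elsewhere, S100A6 with ANXA1 0.34 and 0.35 against 0.16 to 0.45, and S100A4 with ANXA1 0.08 and 0.06 against 0.03 to 0.17. The 15 pairs that include ANXA3 or ANXA4 stayed between -0.11 and 0.11. These values describe 551 and 593 cells that share a library and were selected on GABRP.

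Over the 10 sums, S100A10 and ANXA2 had the closest pattern of all 36 pairs of members, with Pearson's r = 0.97 on the log2 scale. S100A11 with ANXA5 followed at 0.94, and ANXA1 with S100A10 was at -0.01. Among 7193 other genes with at least 20 CPM, those most like S100A6 were FAM122B, ATP6V0C and TNFRSF12A, each with r = 0.99. Most like S100A10 were CAPN2, TVP23B and DNAJB9 (0.99), most like S100A11 STX12, MAP1LC3A and TSC22D2 (0.98), and most like ANXA2 ATP2B4, THSD4 and HM13 (0.99). ANXA5 was most like ZMIZ1, SMIM1 and SLIT3 (0.99), ANXA1 most like B4GALT3, CLDN4 and VTI1B (0.98 to 0.97), and ANXA4 most like LASP1, HIC2 and PPT2 (0.97). For S100A4 these were HDAC1, BLOC1S2 and ARPC4 (0.93 to 0.91) and for ANXA3 PPP1R1A, LAMB1 and PDE4D (0.95 to 0.94). The sums share 5 gates and 2 libraries, so a high r over them is easily reached.

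The rest of both families was also read. This list and the gates were chosen with earlier results of these cells known, so its counts are no independent evidence of a direction. Of 16 further S100 genes and 7 further annexins, 21 were in the tables and 17 had enough UMIs to be tested. The sums were compared by edgeR's quasi-likelihood test, each gate against the mean of the log2 levels of the other 4, and a gene was called at an adjusted p under 0.05 (Benjamini-Hochberg over all genes) and a fold of at least 2. In the GABRP gate 15 of these 17 genes were called higher, beside 9.27% of all genes. Of the 15, S100A3, S100A8 and S100Z had enough UMIs only through the GABRP gate itself. Among the 14 genes whose 8 sums in the other gates passed the limit on their own, a restriction chosen after seeing the data, 12 were called higher, beside 8.67% of all genes so restricted. With no scaling factor it was 9, beside 6.16%, and with gates at the 80th percentile 10, beside 7.27%. The median log2 difference of these 14 was 2.66, and -0.03 over all genes so restricted. The 2 that were not called, ANXA7 and S100B, had log2 differences of 0.43 and -0.66. The 4 genes that were in the tables and not tested were S100A7, S100G, ANXA10 and ANXA13. In the TP63 gate 1 gene was called higher (3.89% of all genes) and 2 lower (5.83%). In the POU5F1 gate none was called higher (7.46%), with 0 at an unadjusted p under 0.05 and 0 by DESeq2, and 4 were called lower (8.45%). In the CRABP1 gate 1 was called higher (6.98%) and 4 lower (3.36%), and in the COL3A1 gate 1 was called higher (9.36%) and 6 lower (7.61%). The mean that these gates were tested against includes the GABRP gate, where the 17 genes had a median log2 difference of 2.68. Lower calls in the other gates, here and in the lists below, therefore partly restate levels of the GABRP gate and are not separate results.

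Of the 9 S100 genes that passed without the GABRP gate, 8 were called higher in it, beside the 8.67% of all genes so restricted, with log2 differences from 1.07 to 5.60. The lowest of them, S100A13, was not called with no scaling factor (0.80) nor with gates at the 80th percentile (0.82). S100A12, a calgranulin best known from myeloid cells, had 13.9 and 18.1 CPM in the GABRP gate and at most 0.90 in any other, a log2 difference of 5.60 (adjusted p = 2.33e-08). S100A9, the partner of S100A8 in calprotectin, had 9.84 and 12.3 CPM against at most 0.92 (4.24, adjusted p = 1.63e-09). S100A5 had 27.1 and 25.2 CPM against at most 3.97 (3.83, adjusted p = 4.84e-09). S100A1, known from muscle, had 237 and 235 CPM against at most 64.9 (3.08, adjusted p = 3.17e-10). S100A3 and S100A8 rest on only 94 and 42 UMIs in all 10 sums. They had 2.11 and 2.53 CPM and 1.33 and 0.59 CPM in the GABRP gate, which are given as values with no test. S100A14 and S100A16, named here after their values were seen because they had the most UMIs of this list, had 557 and 604 CPM and 370.03 and 405 CPM in the GABRP gate, 194 and 198 CPM and 88.1 and 91.5 CPM in the TP63 gate, and their lowest levels in the COL3A1 gate. S100B, known from glia, was called higher in the CRABP1 gate, with 3.22 and 2.82 CPM (1.37, adjusted p = 1.73e-04), and in the COL3A1 gate, with 2.97 and 3.16 CPM (1.57, adjusted p = 4.77e-05).

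Along chromosome 4 these genes form a row with the members. From S100A1 to S100A10, between positions 96007026 and 97272517, the tables hold 15 S100 genes and 31 other protein-coding genes. Of the 15, 4 are the members, chosen with their levels known, and S100A3 and S100A8 had enough UMIs only through the GABRP gate. S100A7 had 2 UMIs in all. For the 8 that remained, both sums of the GABRP gate lay above the 8 sums of the other gates, as they did for 8.81% of all genes with enough UMIs outside that gate. Of the 31 other genes, 22 had no UMI in any sum and the highest level of any was 0.32 CPM. They include the genes of the cornified envelope IVL and LOR, which mark terminally differentiated epidermis and were at 0 UMIs and at no more than 0.23 CPM. S100A4, S100A5 and S100A6 follow each other directly. Of these, S100A5 and S100A6 were highest in the GABRP gate in both libraries, and for S100A4 the CRABP1 gate of library 1 was above the GABRP gate. S100A1 and S100A13 overlap on opposite strands, and the strand setting of the counting is not given in the sources used here. Whether the counting told reads of their shared stretch apart was not tested.

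**Figure D4:**
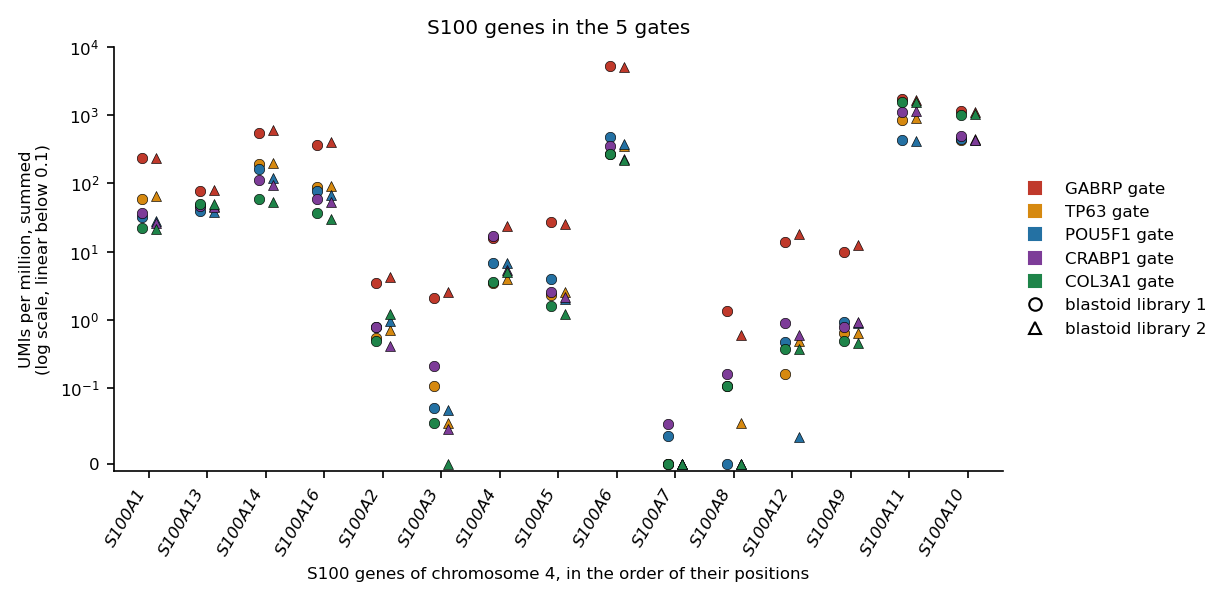
The 15 S100 genes of chromosome 4 in the order of their positions, in CPM of the summed cells of each gate on a scale that is logarithmic above 0.1; colours are gates, circles library 1 and triangles library 2. S100A12 is at 13.9 and 18.1 in the GABRP gate and at most 0.90 in any other, whereas S100A4 of library 1 is higher in the CRABP1 gate; S100A4, S100A6, S100A10 and S100A11 were chosen with their levels known, and S100A3, S100A7 and S100A8 rest on 94, 2 and 42 UMIs.

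Among the annexins, 4 of 5 tested were called higher in the GABRP gate, beside 9.27% of all genes. With no scaling factor it was 2, ANXA6 and ANXA8, beside 6.71%, and with gates at the 80th percentile 3, beside 7.78%, as ANXA11 was not called. ANXA8, known from squamous and other epithelia, had 42.5 and 37.6 CPM there (4.63, adjusted p = 1.61e-10), 7.15 and 6.28 CPM in the TP63 gate, 2.92 and 1.73 in the COL3A1 gate, 1.43 and 1.34 in the CRABP1 gate and 0.66 and 0.57 in the POU5F1 gate. Its TP63 level was called higher than the mean of the other log2 levels (1.12, adjusted p = 1.09e-04), although it was far below that of the GABRP gate. ANXA6, an annexin with a doubled core, had 252 and 268 CPM in the GABRP gate (1.37, adjusted p = 6.16e-08) and was called lower in the CRABP1 gate at 78.0 and 64.3 CPM (-1.39, adjusted p = 7.06e-07). ANXA9 and ANXA11 were called at 1.11 and 1.09. ANXA7 was at 99.1 and 112 CPM in the GABRP gate and between 72.5 and 107 elsewhere.

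Genes that work with annexins at the membrane were read from a list of 13, all tested. In the GABRP gate 8 were called higher, beside 9.27% of all genes, with a list median of 1.10. With no scaling factor it was 5, beside 6.71%, as MYOF, CAPN1 and CAPN2 were not called. With gates at the 80th percentile it was 6, beside 7.78%, as CAPN1 and CAPN2 were not called. AHNAK, the large scaffold that the S100A10 and ANXA2 complex binds, had 281 and 303 CPM there, 139.1 and 143 in the COL3A1 gate and 63.4 to 107 in the others (1.96, adjusted p = 3.09e-09). Its relative AHNAK2 (2.62), the vesicle-tethering gene SYTL2 (2.96) and the protease gene CAPN1 (1.15) were called too, as were the calcium channels TRPV5 (1.36) and TRPV6 (1.72), both at no more than 1.06 CPM in that gate. TRPV5 was not called by DESeq2, and its 0.44 and 0.82 CPM there overlapped with 0.70 and 0.64 in the POU5F1 gate, the gate through which alone it had enough UMIs. It was also the 1 gene of this list called higher in the POU5F1 gate, beside 7.46% of all genes. That call rests on the gate that let TRPV5 be tested, so nothing is read from it. All 13 passed the limit on low counts without the GABRP gate. MYOF, a ferlin of membrane fusion and repair, was called higher in the GABRP gate, at 211 and 211 CPM (1.10), and in the TP63 gate, where it was highest at 269.6 and 259 CPM (1.21). TRPV6 was also called higher in the TP63 gate (1.73), at under 1.2 CPM. The lower calls of this list were TRPV6 in the POU5F1 gate and AHNAK and MYOF in the CRABP1 gate. The ESCRT genes PDCD6IP and CHMP4B and the ferlin DYSF were not called in any gate.

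Plasminogen activation, which takes place at the surface that the S100A10 and ANXA2 complex provides, was read from single genes of a list. PLAU, the urokinase activator, had 21.7 and 31.1 CPM in the GABRP gate against at most 4.53 elsewhere (3.66, adjusted p = 2.88e-09, beside the 9.27% of all genes called higher), and its receptor PLAUR had 8.78 and 8.47 CPM against at most 4.43 (2.31, adjusted p = 1.96e-07). SERPINE2, an inhibitor of the activators, was called lower in the GABRP gate, with 18.8 and 18.3 CPM against 51.8 to 76.9 (-1.46, adjusted p = 1.16e-08), beside 9.18% of all genes called lower. PLAT, the tissue activator, was called higher only in the COL3A1 gate, where it had 59.2 and 54.9 CPM (1.11, adjusted p = 6.13e-06). PLG, plasminogen itself, and SERPINB2 had too few UMIs to be tested. For all lists the p-values rest on 2 libraries and measure the spread between them.

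In the pESCs the same 9 genes were read from FPKM (fragments per kilobase of transcript, scaled by the library's mapped fragments), a unit that allows genes to be compared, added up over the transcripts of each gene. Values stand in the order of the deposited columns IVFP25, PA_4P7 and PAP25, whose names do not tell which labelled sample each holds. PAP25 stood apart, as the 6 hypoblast genes summed to 119 FPKM in it against 16.3 and 18.8 in the other columns, with FOXA2 at 81.8 and SOX17 at 26.1. The sum of the 8 trophectoderm genes was also highest there, at 1853 FPKM against 1406 and 1029. Most of that sum was KRT8, at 1448 FPKM in PAP25 against 972 and 732. GATA2, GATA3 and CDX2 were highest in PAP25 too, at no more than 3.97 FPKM. The others went another way, as TFAP2C, SFN and TEAD4 were lowest in PAP25 and KRT18 was highest in IVFP25. ANXA2 was highest in every column, with 229.5, 229.0 and 159.7 FPKM, a mean of 206 ± 40.2 (SD, n = 3, the IVF-named column included). S100A11 was second in every column, with 155, 156 and 137 FPKM (149 ± 10.9), and S100A10 came next, with 88.0, 47.8 and 59.1 FPKM (65.0 ± 20.7). These 3 genes stood among the top 5% of the 20509 genes above 0 by mean FPKM, at ranks 266, 383 and 978.

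S100A6 was modest in the pESCs, with 16.1, 5.20 and 4.23 FPKM and a rank of 6270. Its mean of 8.52 ± 6.62 FPKM was 4.71 without IVFP25, and it could not be told from ANXA4 (12.7 ± 0.94), ANXA1 (9.06 ± 5.16) or ANXA5 (6.67 ± 2.57), whose columns overlapped with it. ANXA3 lay at 2.33 ± 0.85 FPKM, and S100A4 was listed at 0 in 2 columns and at 0.87 FPKM in PA_4P7. Without PAP25 the means were 229 for ANXA2, 67.9 for S100A10, 10.7 for S100A6 and 5.19 for ANXA5, which was highest in PAP25 at 9.63 FPKM against 5.03 and 5.35. The part of the hypoblast and trophectoderm genes in these values was not tested. GABRP itself was not absent from the pESCs, with 48.2, 51.9 and 21.3 FPKM. POU5F1 stood at 526 ± 105 FPKM. In bulk, fewer cells of a type and less RNA per cell cannot be told apart.

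**Figure D5:**
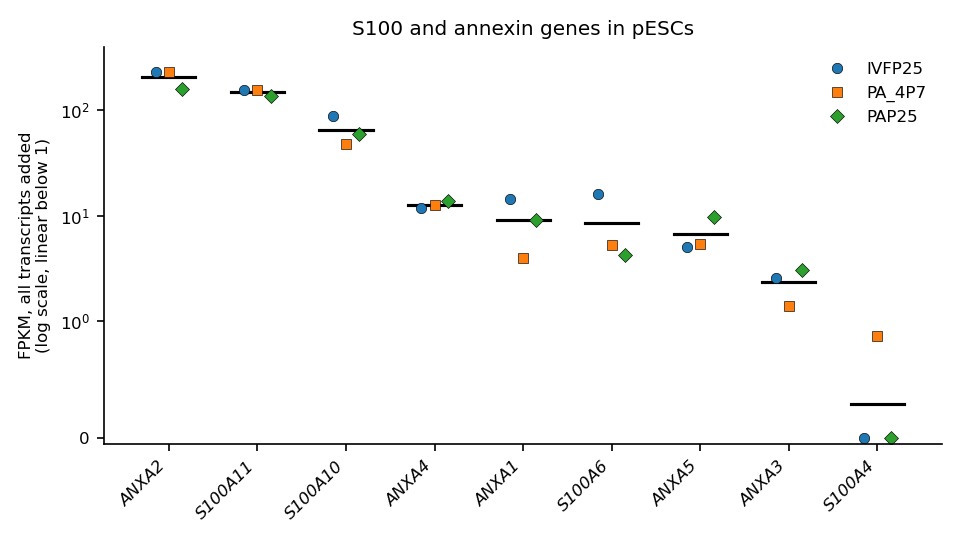
FPKM of the 9 members in the 3 pESC columns, all transcripts of a gene added, on a scale that is logarithmic above 1; bars are the mean of the 3 columns. ANXA2, S100A11 and S100A10 lead in each column, and S100A4 is at 0 in 2 of the 3.

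Transcripts of S100A10 differed between the columns. The leading transcript, XM_005663437.3, had 53.1, 45.3 and 57.4 FPKM. A second transcript, NM_001291924.1, had 32.7 FPKM in IVFP25 and 0.31 and 0.56 in the other two, so the higher total of IVFP25 lay mostly in it. For S100A6 the leading transcript was NM_001044557.1, with 10.6, 4.33 and 3.55 FPKM, and for ANXA2 it was NM_001005726.1, with 219, 215 and 156.

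Of the further S100 and annexin genes in the bulk table, 7 of 21 were listed at 0 in all 3 columns, ANXA8, S100A2, S100A3, S100A8 and S100A12 among them. The highest were ANXA6 at 70.8 ± 12.5 FPKM, ANXA7 at 43.2 ± 5.19 and ANXA11 at 25.9 ± 2.15. S100A14 had 4.47 ± 1.64 FPKM and S100A16 3.8 ± 1.98. The feeders are mouse fibroblasts, and the 9 mesenchyme and fibroblast genes summed to 9.63, 8.26 and 9.98 FPKM, with 3 of 9 at 1 FPKM or more in every column, COL3A1 at no more than 0.02 and POSTN at 0. The part of feeder RNA in the members' FPKM was not tested. The depth behind the FPKM values is unknown.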

How the data were processed

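Blastoid cells were read from the deposited raw UMI counts of every barcode, which the authors made with Cell Ranger 7.1.0 on susScr11 after quality control with Dr.seq2. The deposited barcode and gene name files (other than counts) gave only names. The deposited FPKM values of pESCs were made by the authors with Trim Galore 0.6.4, HISAT2 2.2.1 and StringTie 2.2.1, and were added up per gene symbol. Seurat 4.3.0, named in the submitters' processing notes, was not used here. The members, gene lists and gates were chosen with earlier results of these data known.

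Cells were called by an order-of-magnitude rule on UMI totals, which kept 87.8% and 87.7% of the 289452283 and 302211552 UMIs. Raw counts were summed per gate and library into 10 sums of 13275372 to 28012811 UMIs. Genes passing filterByExpr (17149) were scaled by TMM (factors 0.872 and 0.856 in the GABRP gate, 0.988 to 1.10 in the others) and tested with edgeR 4.0.16, with DESeq2 1.42.0 as an alternative, in R 4.3.3, and tested on simulated data first. Member differences are log2 CPM after TMM with a prior count of 0.5, whereas printed CPM carry no such factor. Sums with the same number come from the same library, and their deviations correlated at 0.09 to 0.21 over 10 pairs of gates, so the library pairs them. A replicate block was an alternative. Doublet scores came from Scrublet (scanpy 1.11.5), and no cell was removed by them. Its automatic threshold marked 1 cell in each library, so the highest scores up to 0.8% per 1000 cells were taken in the alternative. Further alternatives concerned the gate limit, the UMI limit, mitochondrial share, scaling, free RNA, the filter, and leaving out a library or column.

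Named genes were the members, each gene of a list called higher in a gate (at most the 6 with the largest fold) and the 3 genes most like each member. Promoter windows and coordinates come from RefSeq on Sscrofa11.1, and 9 of 9 members matched by symbol. S100A15 and S100P had no entry of that name. Protein sequences were not used here. Some items of the lists and windows are not reported here.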

Additional observations from a re-analysis of the deposited data

How the results depend on the processing

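The median log2 difference of the 9 members kept its sign in every gate under every alternative run. Each gate was set against the mean of the other gates, so high levels in the GABRP gate lower the values of the rest. The kept signs of the gates are therefore tied and are not separate results. In the GABRP gate it was 1.23, and it became 0.94 with gates at the 80th percentile, 1.46 at the 95th, 1.19 with cells from 1000 UMIs, 1.31 without doublets, 1.32 with the share of empty droplets subtracted and 0.97 with no scaling factor. The same settings gave, in the POU5F1 gate (-0.53), -0.34, -0.68, -0.50, -0.43, -0.39 and -0.44, with -0.65 when cells of several gates were kept and -0.57 with the mitochondrial filter. In the COL3A1 gate (0.38) they were 0.50, 0.52, 0.41, 0.49 and 0.44 up to the subtraction, and 0.35 with cells of several gates kept. The TP63 gate (-0.31) moved to -0.25 with those cells and -0.39 with cells from 1000 UMIs, and the CRABP1 gate (-0.48) to -0.64 at the 95th percentile and -0.32 with no scaling factor. Leaving out each library in turn gave 1.25 to 1.29 (GABRP), -0.63 to -0.60 (POU5F1), -0.63 to -0.46 (CRABP1), 0.37 to 0.39 (COL3A1) and -0.35 to -0.27 (TP63).

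The count of members at least 2-fold above in both libraries in the GABRP gate, 7, was 2 with gates at the 80th percentile and 4 with no scaling factor, 6 or 7 under the other settings, and 7 to 8 when each library was left out; these counts were added after seeing the data. The count of further S100 and annexin genes called higher in the GABRP gate, 15, stayed between 12 and 16, and the paired fit with a replicate block also gave 15. In the TP63 gate the 1 call became 2 at the 95th percentile and without doublets, and 5 with no limit on the fold. In the POU5F1 gate it was 1 with no filter on low counts. In the COL3A1 gate the 1 call became 2 at the 80th percentile, with cells of several gates kept, with no filter and with no limit on the fold. With no limit on the fold, 5108 genes were called higher in the GABRP gate (1590 with it), 3740 in the TP63 gate (667), 4974 in the POU5F1 gate (1279), 3221 in the CRABP1 gate (1197) and 4318 in the COL3A1 gate (1605). Single calls fell under the limits in 14 of 358 values, among them S100A13, ANXA9, ANXA11, MYOF, CAPN1 and CAPN2 in the GABRP gate with no scaling factor, S100A13, ANXA11, CAPN1 and CAPN2 with gates at the 80th percentile, and S100Z and TRPV5 by DESeq2. The count of the 13 membrane genes called higher in the GABRP gate ran from 5 to 8 over the alternatives. The replicate block changed no call of a named gene. Leaving out a pESC column took the mean of S100A6 from 8.52 to between 4.71 (without IVFP25) and 10.7 FPKM, and that of S100A4 from 0.29 to 0 without PA_4P7. Depth limits most the levels of S100A4, ANXA3 and ANXA4, which had few UMIs, and free RNA limits every member's level in gates where it could supply much of it.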
